A study of Mus musculus with 20 samples.

Results

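Retinoid metabolism and signalling was followed through 9 genes in the livers of mice fed chow or a high-fat diet (HFD): the carrier gene Rbp4, the storage gene Lrat, the oxidoreductase genes Dhrs3, Rdh11 and Aldh1a1, the clearance genes Cyp26a1 and Cyp26b1, and the receptor genes Rara and Rarb. They were chosen for their role, with earlier results of these data known, and matched by symbol. All 9 were found once each among the 55487 identifiers of the count table. The animals were female C57BL/6J mice, put on chow or HFD at 8 weeks of age. After 10 weeks the chow group stayed on chow, and the HFD mice received for another 10 weeks HFD in which 50% of the protein came from 1 of 3 sources: a fishmeal produced from by-products of salmon, filet of salmon, or beef. Casein supplied the rest. Per the study, the fishmeal diet also held more cholesterol and more added soybean oil than the salmon or beef diet. These differences cannot be told apart from the protein source here. Drinking water held multivitamin drops that contained vitamin A, per the methods of the study. The fishmeal, salmon and beef diets were autoclaved. The vitamin A content of the diets is not given in the sources used here, so intake may differ between groups. Livers were taken at 28 weeks and 1 library was made per mouse, with no transgene or deletion in any group. The labels place 5 mice in chow (mice 1, 2, 5, 7 and 10), 5 in fishmeal (12, 13, 14, 16 and 20), 6 in salmon (22, 23, 25, 26, 27 and 31) and 4 in beef (32, 35, 39 and 40). Mouse 31 is labelled salmon, while the ending of its count column reads beef. The study describes sequenced groups of equal size, which the column ending gives and the label does not. This favours the column ending. Mouse 31 was nevertheless kept as labelled, so the main salmon and beef values rest on the label. The main test results for salmon and beef are given also without this mouse or with it among the beef mice. Medians, means, ranges and shares of genes that do not overlap follow the label unless stated. The HFD mice were compared with chow as 15 against 5, and this comparison does not depend on where mouse 31 belongs.

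The liver takes up vitamin A, sends retinol to the blood on the carrier protein encoded by Rbp4, and stores most of the body's supply as retinyl esters, which stellate cells make with the acyltransferase encoded by Lrat. Retinol is oxidised to retinal and retinal to retinoic acid, with Dhrs3 and Rdh11 encoding enzymes of the step between retinol and retinal, and Aldh1a1 a retinal dehydrogenase. Retinoic acid binds nuclear receptors (Rara, Rarb and Rarg with the retinoid X receptors as partners) that switch on target genes. Among the known targets are Cyp26a1 and Rarb themselves, and Cyp26a1 and Cyp26b1 encode the cytochromes P450 that break retinoic acid down.

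The elements through which retinoic acid receptors act are known as direct repeats of a hexamer, so the promoters of the members were searched for them. Each promoter window ran from 250 bases before to 50 bases after a RefSeq start site (GRCm38.p6). A repeat was counted where a hexamer (AGGTCA, or AGTTCA, or GGGTCA, or GGTTCA) stood in the same direction as another hexamer of this set, 5 bases apart, on either strand. The repeat stood in 32 of 32851 windows of all genes (0.0974%), and among the 9 members in those of Cyp26a1 and Rarb. Because these are the members whose promoter holds the repeat, the 250 bases that end near their start sites are printed here on the strand of each gene, with the repeat in capitals. The Cyp26a1 stretch lies at chr19:37697558-37697807 on the plus strand and the Rarb stretch at chr14:16575477-16575726 on the minus strand.
Cyp26a1: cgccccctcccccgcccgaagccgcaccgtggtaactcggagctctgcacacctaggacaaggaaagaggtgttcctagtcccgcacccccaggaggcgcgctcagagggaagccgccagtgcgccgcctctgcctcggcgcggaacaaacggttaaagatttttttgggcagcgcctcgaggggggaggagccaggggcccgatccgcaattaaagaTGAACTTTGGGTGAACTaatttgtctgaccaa
Rarb: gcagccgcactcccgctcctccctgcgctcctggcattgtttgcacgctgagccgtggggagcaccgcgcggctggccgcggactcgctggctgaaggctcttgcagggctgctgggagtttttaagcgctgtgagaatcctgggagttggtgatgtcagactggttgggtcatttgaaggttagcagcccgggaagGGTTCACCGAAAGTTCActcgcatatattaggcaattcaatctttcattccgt
In Cyp26a1 the repeat covered positions -32 to -16 from the start site and read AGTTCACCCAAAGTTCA on the other strand, and in Rarb it covered -53 to -37. The same hexamers 2 bases apart stood in no window of a member and in 0.268% of all windows, and a single hexamer on either strand stood in 43.7%. A match in letters is a description and does not show binding.

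Counts on genes ranged from 42526234 to 70266136 per library. Levels are given as counts per 1000000 (CPM) after TMM scaling over the 20 libraries, and levels of different genes are compared as transcripts per 1000000 (TPM), which the authors scaled to gene length. Protein coding genes held 93.2% to 95.6% of the counts in 19 libraries and 84.3% in beef mouse 35. Liver as the tissue was checked with 6 hepatocyte markers, which had a summed level of 83093 to 114766 CPM, and with 4 adipocyte markers, which summed to at most 0.215 CPM. In HFD against chow 4 of 7 lymphocyte markers fell (Cd2, Cd79a, Cd79b and Ms4a1). All 7 summed to 11.4 to 21.3 CPM in HFD and 15.5 to 34.0 CPM in chow. Of 9 pericentral hepatocyte markers Cyp1a2 and Axin2 fell, by 0.94 and 0.77 on the log2 scale. The other 7 did not pass an adjusted p under 0.05 in edgeR, and the median over all 9 was 0.08. The most abundant, Cyp2e1, had 0.47 (adjusted p = 0.0591). All 9 markers summed to 8496 to 14222 CPM in HFD and 6741 to 10441 CPM in chow. Clec4g, 1 of 7 endothelial markers, fell by 0.29, and Alas2 of 5 red blood cell markers and Cela1, the 1 tested pancreas marker, rose by 0.71 and 0.77. The other pancreas markers (Cpa1, Pnlip, Ctrb1 and Cel) averaged at most 0.00442 CPM in HFD or in chow and were not tested. The part of these marker changes in the results below was not tested. Core clock genes differed between the diets: 7 of 12 were higher and 2 lower in HFD than in chow, with Dbp 26.0-fold and Per3 6.15-fold higher. A clock score (mean log2 CPM of Nr1d1, Dbp, Per3, Ciart and Tef minus that of Arntl, Npas2 and Clock) ran from -3.98 to -1.69 in chow and from -2.97 to 3.91 in HFD. The fit of HFD against chow was therefore repeated with this score as a covariate. In that edgeR fit 314 of 17120 genes had an adjusted p under 0.05, beside 1669 without the score. The time of day of collection is not given in the sources used here. In whole liver, fewer cells of a type and less RNA per cell cannot be told apart.

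Rbp4 was by far the most abundant member per length and Rarb the least. Over the 20 mice the mean TPM was 3681 for Rbp4 (SD 566), 531 for Aldh1a1 (SD 122), 219 for Dhrs3 (SD 27.0) and 68.4 for Rdh11 (SD 43.9). These 4 genes held this order in each of the 20 mice. Lrat followed with 14.3 TPM (SD 3.27), Cyp26a1 with 12.3 (SD 13.0), Rara with 9.50 (SD 2.36), Cyp26b1 with 4.66 (SD 3.03) and Rarb with 1.72 (SD 0.437). In the lower part the order differed between mice. Lrat lay above Cyp26a1 in 14 of 20 mice, Cyp26a1 above Rara in 6 of 20, and Rara above Cyp26b1 in 18 of 20. The place of Cyp26a1 also differed between the diets: in chow it had a mean of 28.3 TPM (SD 18.2, n = 5) and lay above Lrat in all 5 mice, and in HFD it had a mean of 7.04 TPM (SD 3.68, n = 15) and Rara lay above it in 14 of 15 mice.

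**Figure D1:**
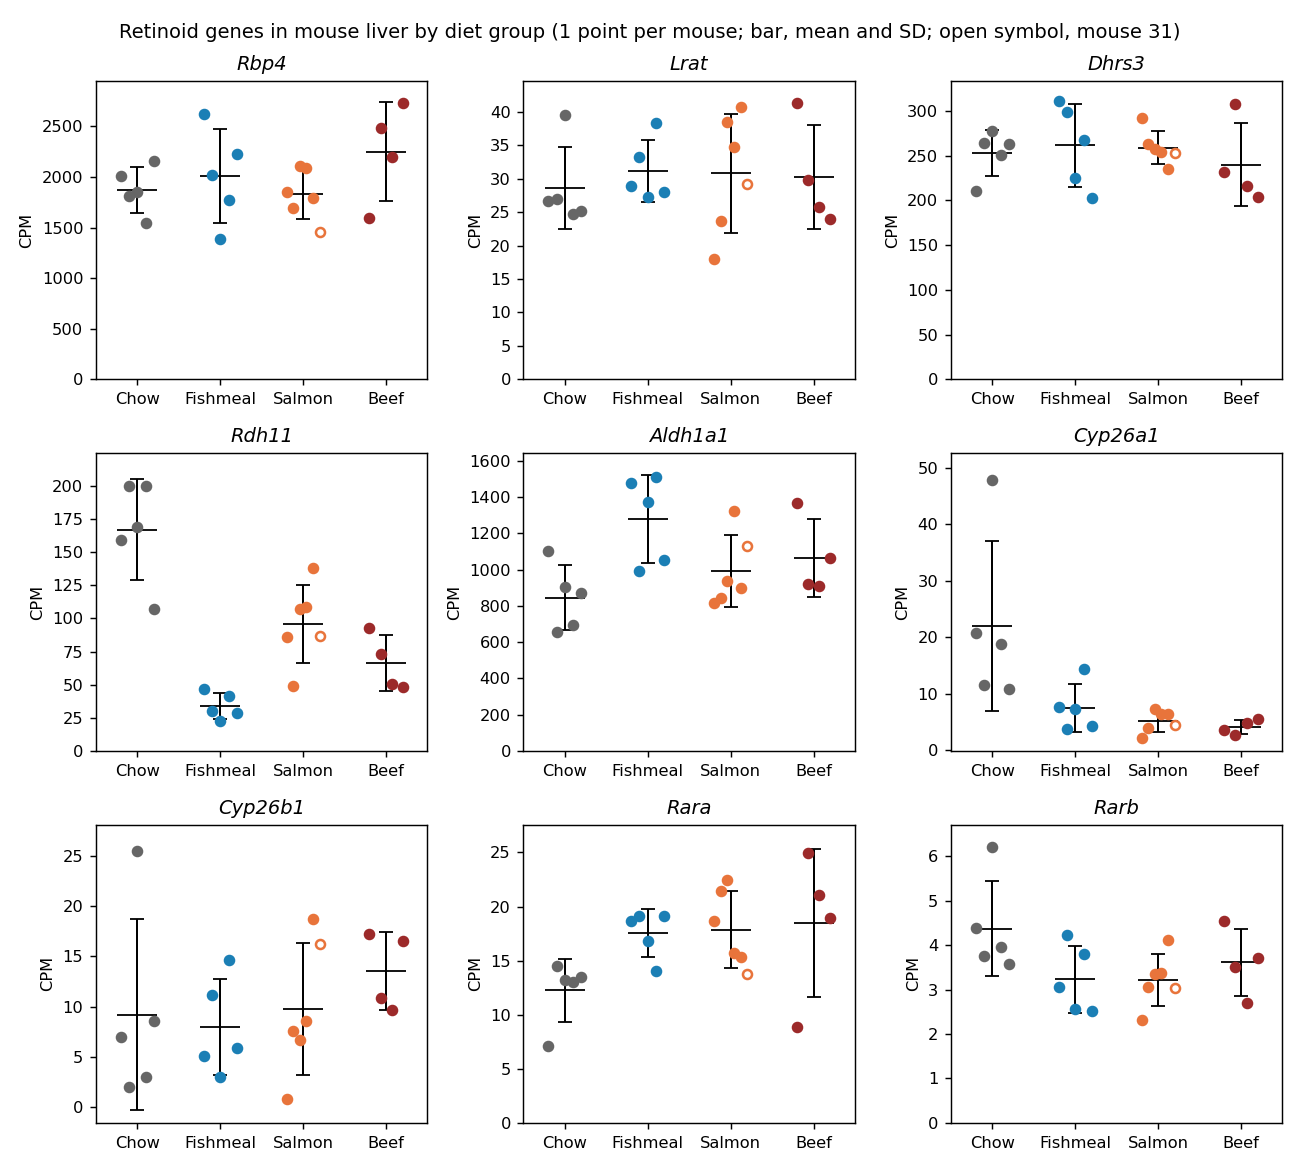
CPM (vertical axis, linear) of each of the 9 genes in every mouse, by diet group; horizontal bars and whiskers are the mean and SD, and the open symbol is mouse 31. All 15 HFD mice lie below the chow mean for Cyp26a1 and Rdh11, and the 5 fishmeal mice lie below every other mouse for Rdh11.

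In HFD against chow, 3 of the 9 members passed an adjusted p under 0.05, and Cyp26a1 and Rdh11 fell while Rara rose. Of all 17120 genes tested, 9.75% passed (4.54% higher and 5.21% lower in HFD). At an unadjusted p under 0.05 there were 5 members, with Aldh1a1 and Rarb added, beside 24.4% of all genes. The median log2 fold change of the 9 members was 0.09, beside 0.00499 over all genes tested. Fold changes below are log2 values from edgeR with their standard error (SE), and intervals are 95% intervals from the t distribution with the degrees of freedom of the test. Each sample is 1 mouse, so the tests rest on the spread between these mice. In HFD against chow that spread also holds differences between the HFD groups, which were pooled. The study describes the sequenced mice as representative individuals of larger diet groups. How they were picked and which of them shared a cage is not given in the sources used here.

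**Figure D2:**
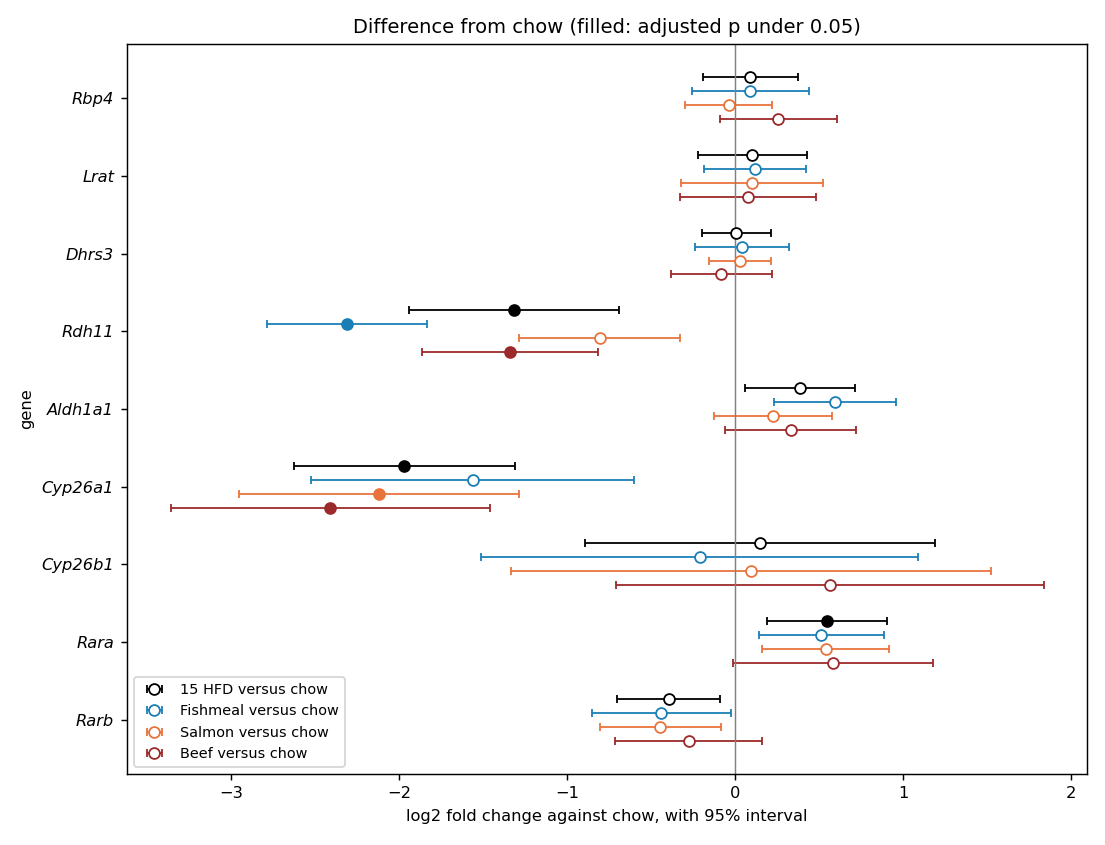
Log2 fold change against chow (horizontal axis) of each gene for all 15 HFD mice and for each HFD group, with 95% intervals; filled symbols passed an adjusted p under 0.05. The intervals of Cyp26a1 and Rdh11 lie below 0 in all 4 comparisons, and those of Rbp4, Lrat, Dhrs3 and Cyp26b1 cross 0 in all 4.

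Cyp26a1 (ENSMUSG00000024987, GRCm38 chromosome 19, 37697798 to 37701536, plus strand) encodes the retinoic acid hydroxylase of liver. It stood at 20.8, 11.5, 47.9, 18.9 and 10.8 CPM in chow mice 1, 2, 5, 7 and 10. In fishmeal mice 12, 13, 14, 16 and 20 it stood at 7.59, 3.65, 7.25, 14.4 and 4.27 CPM. The salmon mice had a lowest value of 2.08, a median of 5.37 and a highest value of 7.23 CPM, and beef mice 32, 35, 39 and 40 had 3.59, 2.65, 4.83 and 5.46 CPM. Chow mouse 5 was the highest of all mice, and only fishmeal mouse 16 reached into the chow range. Cyp26a1 fell by 1.97 (SE 0.318) in HFD, 3.92-fold, with an adjusted p of 3.68e-04, and all 15 HFD mice had less than the chow mean. Without chow mouse 5 the log2 fold change was -1.47 (adjusted p = 0.00449), the smallest fall among 20 repeats that dropped 1 mouse at a time. With the clock score as a covariate it was -2.02 (adjusted p = 0.0140). These levels rest on 114 to 829 reads per HFD library and 612 to 2728 per chow library. Its neighbour Cyp26c1, a further retinoic acid hydroxylase gene that lies 4399 bases away, had 0 to 10 reads per library and was not tested.

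Rdh11 (ENSMUSG00000066441, chromosome 12, 79174337 to 79192293, minus strand) encodes an oxidoreductase of retinol and retinal. Its chow values were 159, 200.3, 169, 199.6 and 107 CPM in mice 1, 2, 5, 7 and 10. The fishmeal mice 12, 13, 14, 16 and 20 had 46.5, 30.1, 22.8, 41.5 and 28.7 CPM. The salmon mice had a lowest value of 49.4, a median of 96.8 and a highest value of 138 CPM, and beef mice 32, 35, 39 and 40 had 92.7, 73.4, 50.3 and 48.1 CPM. The fishmeal and beef mice lay wholly below chow, while 3 salmon mice (25, 26 and 27, with 107, 109 and 138 CPM) lay close to or above chow mouse 10. Over all HFD mice Rdh11 fell by 1.317 (SE 0.302), 2.49-fold, with an adjusted p of 0.00705, and no HFD mouse reached the chow mean. With the clock score as a covariate the value was -0.97 and no longer passed (adjusted p = 0.299). A processed pseudogene, Gm7880, matches 873 bases of Rdh11 transcript at 86.1% identity, and reads that could belong to either were not separable here.

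Rara (ENSMUSG00000037992, chromosome 11, 98927818 to 98974942, plus strand) encodes retinoic acid receptor alpha. In chow it stood at 7.13, 14.5, 13.2, 13.0 and 13.5 CPM in mice 1, 2, 5, 7 and 10. The fishmeal mice 12, 13, 14, 16 and 20 had 18.7, 19.2, 16.8, 14.0 and 19.1 CPM. The salmon mice had a lowest value of 13.7, a median of 17.2 and a highest value of 22.5 CPM, and beef mice 32, 35, 39 and 40 had 8.91, 25.0, 21.1 and 19.0 CPM. Beef mouse 32 was the sole HFD mouse below the chow mean, and chow mouse 1 was the lowest of all. Rara rose by 0.55 (SE 0.173) in HFD, 1.46-fold, with an adjusted p of 0.0471. This call was at the edge of the threshold: when 1 mouse was dropped at a time it held in 4 of 20 repeats, where the adjusted p ran from 0.0110 to 0.176 and the log2 fold change from 0.41 (without chow mouse 1) to 0.61 (without chow mouse 2). It did not hold with the clock score as a covariate (0.23, adjusted p = 0.721), nor with no filter on low counts (adjusted p = 0.0645), in the fit on all 4 groups (adjusted p = 0.0581) or in limma (0.44, adjusted p = 0.0889). Over the 15 HFD mice Rara moved with the GC trend of the library, which is the Spearman correlation over genes of GC content with log2 CPM relative to the mean of all mice (Pearson's r = 0.883, Spearman's rho = 0.911). Without the 2 mice farthest from the median of the trend r was 0.857. This trend ran from -0.555 to 0.150 in chow and from -0.623 to 0.542 in HFD, and its part in the Rara result was tested only through the offsets that follow. An alternative added once the data had been seen, with offsets for GC and length of each gene, gave Rara a value of 0.43 (adjusted p = 0.00180).

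The receptor gene Rarb (ENSMUSG00000017491, chromosome 14, 16430839 to 16819156, minus strand) was the least abundant member. It stood at 4.38, 3.76, 6.197, 3.96 and 3.57 CPM in chow mice 1, 2, 5, 7 and 10, and in HFD at 2.32 to 4.54 CPM with a median of 3.36. The ranges overlapped, and beef mouse 32 was the one HFD mouse above the chow mean. The log2 fold change was -0.40 (SE 0.148, 95% interval -0.70 to -0.09) and did not pass (adjusted p = 0.0936). Without beef mouse 32 it passed (-0.44, adjusted p = 0.0483). Rarb shares 1433 transcript bases with Top2b, which lies on the opposite strand and had 2134 to 4635 reads per library, beside 113 to 353 for Rarb. The library kit marks strand, but the strand setting of the counting is not given in the sources used here, so reads of Rarb and Top2b may not be separable. Top2b itself changed by -0.09 on the log2 scale (adjusted p = 0.671).

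Aldh1a1 (ENSMUSG00000053279, chromosome 19, 20492715 to 20643465, plus strand) stood at 1103, 655, 904, 695.5 and 869 CPM in chow mice 1, 2, 5, 7 and 10, and in HFD at 817 to 1508 CPM with a median of 1054. It was above the chow mean in 14 of 15 HFD mice, but the ranges overlapped. The log2 fold change was 0.39 (SE 0.158, 95% interval 0.06 to 0.71) and did not pass (adjusted p = 0.128). With the offsets for GC and length it passed (0.41, adjusted p = 0.0448). Its paralog Aldh1a7 matches 2039 bases at 89.0% identity, and reads shared between them make both values uncertain. Aldh1a7 had the opposite sign, at -0.43 (SE 0.161, adjusted p = 0.0919).

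The carrier gene Rbp4 (ENSMUSG00000024990, chromosome 19, 38116629 to 38125281, minus strand) stood at 1545 to 2154 CPM in chow and at 1385 to 2734 CPM in HFD. Its log2 fold change was 0.09 (SE 0.138, 95% interval -0.19 to 0.38), which bounds a change in either direction to less than 1.5-fold. Dhrs3 (ENSMUSG00000066026, chromosome 4, 144892827 to 144928209, plus strand), which encodes an enzyme that returns retinal to retinol, was the steadiest member. It stood at 210.3 to 277 CPM in chow and at 203 to 312 CPM in HFD, with a log2 fold change of 0.00745 (SE 0.100, 95% interval -0.20 to 0.21). Lrat (ENSMUSG00000028003, chromosome 3, 82892579 to 82903973, minus strand) stood at 26.7, 26.9, 39.5, 24.8 and 25.2 CPM in chow mice 1, 2, 5, 7 and 10, and at 18.0 to 41.3 CPM in HFD. Chow mouse 5 stood above the other chow mice, and the log2 fold change was 0.10 (SE 0.156, 95% interval -0.22 to 0.43, adjusted p = 0.744). For stellate cells, in which Lrat is made, 0 of 10 other markers passed in edgeR and 1 had an unadjusted p under 0.05, and their summed level was 517 to 618 CPM in chow and 449.7 to 651 CPM in HFD.

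Cyp26b1 (ENSMUSG00000063415, chromosome 6, 84571414 to 84593908, minus strand) was the member with the largest SD relative to its mean within chow, fishmeal and salmon, though not within beef. It stood at 6.98, 2.05, 25.5, 3.01 and 8.57 CPM in chow mice 1, 2, 5, 7 and 10, and in fishmeal mice 12, 13, 14, 16 and 20 at 5.06, 11.1, 3.01, 14.6 and 5.92 CPM. The salmon mice had a lowest value of 0.841 (mouse 22), a median of 8.08 and a highest value of 18.7 CPM, and beef mice 32, 35, 39 and 40 had 17.2, 10.8, 9.69 and 16.6 CPM. Chow mouse 5, which was highest for Cyp26a1, was highest for Cyp26b1 too. The log2 fold change in HFD was 0.15 (SE 0.503, adjusted p = 0.894), and its 95% interval from -0.89 to 1.19 leaves room for a change of over 1.5-fold in either direction. Without chow mouse 5 it was 0.98 (adjusted p = 0.253).

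Each HFD group was also compared with the same 5 chow mice, so these comparisons share their controls and their values are set side by side. In fishmeal against chow 1 of 9 members passed, where 3.38% of 16471 genes did. In salmon against chow 1 of 9 passed (4.46% of 16605 genes, or 4.42% of 16475 without mouse 31), and in beef against chow 2 of 9 (2.48% of 16559 genes, or 3.05% of 16339 with mouse 31). Rdh11 fell by 2.31 (SE 0.219, adjusted p = 2.10e-04) in fishmeal. In beef Rdh11 fell by 1.34 (SE 0.238, adjusted p = 0.0164), while its salmon value of -0.80 (SE 0.222) did not pass (adjusted p = 0.0573). Cyp26a1 fell by 2.12 (SE 0.387, adjusted p = 0.0120) in salmon. In beef Cyp26a1 fell by 2.41 (SE 0.433, adjusted p = 0.0171), while its fishmeal value of -1.56 (SE 0.444) did not pass (adjusted p = 0.0786). The salmon and beef mice lay wholly below chow for Cyp26a1, as did the fishmeal and beef mice for Rdh11. Of all genes tested, 3.13% (fishmeal), 2.44% (salmon) and 4.43% (beef) lay wholly below chow in this way. Without mouse 31 the salmon values were -2.09 for Cyp26a1 (adjusted p = 0.0259) and -0.78 for Rdh11 (adjusted p = 0.0846). With mouse 31 among the beef mice, the beef values were -2.39 for Cyp26a1 (adjusted p = 0.00828) and -1.255 for Rdh11 (adjusted p = 0.0131).

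Some of these calls turned on a setting or on 1 mouse. Cyp26a1 passed in fishmeal with no filter on low counts (adjusted p = 0.0431), in DESeq2 (adjusted p = 0.0499) and in the fit on all 4 groups (adjusted p = 0.0303). Rdh11 passed in salmon with no filter (adjusted p = 0.0418), in DESeq2 (adjusted p = 0.00840) and with the offsets for GC and length (adjusted p = 0.0482). Without fishmeal mouse 16 Cyp26a1 passed in fishmeal (-1.94, adjusted p = 0.0319), and without chow mouse 1 Aldh1a1 passed there (0.72, adjusted p = 0.0385). Rdh11 passed in salmon without chow mouse 10 (-0.93, adjusted p = 0.0326) or salmon mouse 27 (-0.94, adjusted p = 0.0417). In beef Cyp26a1 did not pass without mouse 40 (-2.57, adjusted p = 0.0561), and Rdh11 did not without mouse 39 (-1.23, adjusted p = 0.0544) or mouse 40 (-1.21, adjusted p = 0.0651). Rara had log2 fold changes of 0.51 (SE 0.172, adjusted p = 0.137), 0.54 (SE 0.175, adjusted p = 0.0964) and 0.58 (SE 0.272, adjusted p = 0.292) in fishmeal, salmon and beef, and Rarb had -0.44, -0.45 and -0.28 (adjusted p = 0.264, 0.143 and 0.512). Aldh1a1 had 0.59 (SE 0.169, adjusted p = 0.0781) in fishmeal, where all 5 mice were above the chow mean, 0.23 in salmon (adjusted p = 0.440) and 0.33 in beef (adjusted p = 0.365). The other 4 members had values between -0.21 (Cyp26b1 in fishmeal) and 0.57 (Cyp26b1 in beef).

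The HFD groups were also compared with each other, where the protein source goes together with the other differences between these diets. In fishmeal against salmon Rdh11 was the 1 member of 9 that passed, where 0.157% of 16548 genes did. It fell by 1.49 (SE 0.241) in fishmeal, 2.80-fold, with an adjusted p of 0.0216, and the 5 fishmeal mice, at 22.8 to 46.5 CPM, did not overlap with the 6 salmon mice, at 49.4 to 138 CPM. Of all genes tested, 0.489% lay wholly lower in fishmeal. Without mouse 31 the value was -1.53 (adjusted p = 0.0339), and 0.17% of genes passed. The call was lost without fishmeal mouse 13, 14 or 20 or salmon mouse 25 or 26, each time with a log2 fold change of -1.37 to -1.46 and an adjusted p of 0.0518 to 0.0765. Between fishmeal and salmon 2 members, Rdh11 and Aldh1a1, had an unadjusted p under 0.05, beside 4.24% of all genes. Aldh1a1 had 0.38 (SE 0.160, adjusted p = 0.999). In fishmeal against beef 0 of 9 members passed in edgeR and in DESeq2, where 0.00607% of 16480 genes did in edgeR. At an unadjusted p under 0.05 there were 2 members, Rdh11 and Cyp26a1, beside 2.33% of all genes. Rdh11 had less CPM in all 5 fishmeal mice than in every beef mouse, as did 0.576% of genes in this direction, and its value was -0.97 (SE 0.246, 95% interval -1.51 to -0.43, adjusted p = 0.793), and with mouse 31 among the beef mice it was -1.05 (adjusted p = 0.387), where 0.0245% of genes passed. Cyp26a1 had 0.85 (SE 0.373, adjusted p near 1).

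In salmon against beef 0 of 9 members passed in edgeR and in DESeq2, where 0% of 16509 genes did in edgeR, and 0 members had an unadjusted p under 0.05, beside 3.71% of all genes. Rdh11 stood at 0.53 (SE 0.258, 95% interval -0.0285 to 1.09) and Cyp26b1 at -0.48 (SE 0.533) on the log2 scale. Without mouse 31 Rdh11 stood at 0.56, and with it among the beef mice at 0.47. Cyp26b1 stood at -0.68 without mouse 31 and at -0.74 with it among the beef mice, and neither passed. Apart from Rdh11, the members' values between HFD groups lay between -0.78 (SE 0.386, Cyp26b1 in fishmeal against beef) and 0.85 (Cyp26a1 in the same comparison), and none passed.

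The level of Cyp26a1 relative to Cyp26b1 was read from TPM. The ratio was 8.04, 15.1, 5.07, 16.9 and 3.41 in chow mice 1, 2, 5, 7 and 10, so Cyp26a1 was the more abundant hydroxylase transcript in each of them. In HFD the ratio ran from 0.562 to 6.69 with a median of 1.36, and Cyp26a1 was the more abundant in 9 of 15 mice. By group this held in 4 of 5 fishmeal mice, 4 of 6 salmon mice and 1 of 4 beef mice. The beef mice had ratios of 0.562, 0.661, 1.346 and 0.889, and mouse 31 had 0.739. The numerator of this ratio is a gene that fell in HFD, so the shift of the ratio holds no further test.

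**Figure D3:**
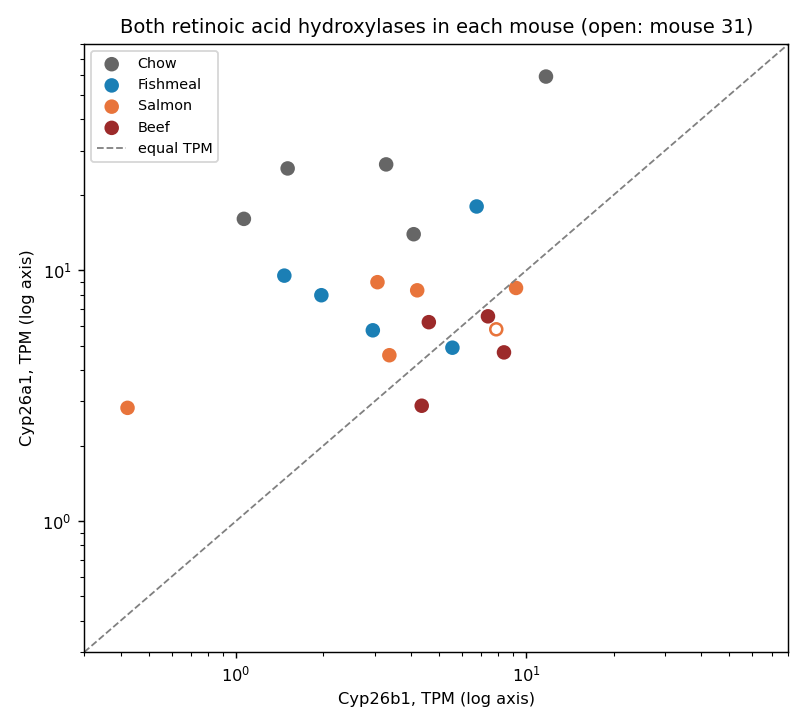
TPM of Cyp26a1 (vertical axis, log scale) against Cyp26b1 (horizontal axis, log scale) in each of the 20 mice, with the line of equal TPM dashed and mouse 31 as an open symbol. The 5 chow mice lie above the line at ratios of 3.41 to 16.9, and 3 of the 4 beef mice lie below it.

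Within the 15 HFD mice the members did not move as one. The closest pair was Cyp26b1 with Rarb (Pearson's r = 0.770, Spearman's rho = 0.786 over 15 mice, and r = 0.657 without the 2 mice farthest from the Cyp26b1 median). Lrat followed Rarb (r = 0.744, rho = 0.704, and r = 0.5683 without 2 mice). Cyp26a1, which shares the promoter repeat with Rarb, had an r of 0.1999 and a rho of 0.025 with it. Cyp26a1 and Cyp26b1 had an r of 0.309 and a rho of -0.0429. The mice share depth and diet groups, and these values are given as a description. Summed stellate markers had a rho of -0.389 with Cyp26b1, 0.229 with Lrat and -0.171 with Rarb over the same mice.

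For each member called in HFD against chow, the 3 protein coding genes of most similar pattern were sought by Spearman's rho over the 15 HFD mice, among 11567 genes whose mean CPM reached 1. For Rdh11 these were Nsdhl (rho = 0.971), Fdft1 (0.961) and Cyp51 (0.946), which encode enzymes of cholesterol synthesis. Without the 2 mice farthest from the Rdh11 median (14 and 27) Pearson's r was 0.949, 0.915 and 0.929. Because these genes were chosen for following Rdh11 over the HFD mice, their levels in the HFD groups are a description with no test. Nsdhl had a mean of 27.2 CPM in fishmeal (SD 7.57, n = 5), 79.9 in salmon (SD 20.0, n = 6), and 62.1 in beef (SD 13.8, n = 4), beside 33.9, 95.9 and 66.1 CPM for Rdh11. The chow mice, which the choice did not use, had a mean of 121 CPM (SD 29.2, n = 5). With mouse 31 among the beef mice, the Nsdhl mean was 79.4 CPM in salmon and 66.1 CPM in beef. The Rdh11 means were then 97.8 and 70.2 CPM. All 3 genes fell in HFD against chow, by 1.08, 1.00 and 1.36 (adjusted p = 0.0230, 0.0138 and 0.00642). Rdh11 had a rho of -0.657 with the summed pericentral hepatocyte markers over the HFD mice (r = -0.730, and r = -0.501 without 2 mice). That sum was 9221 to 14222 CPM in fishmeal, 8496 to 10411 CPM in salmon and 8850.5 to 12058 CPM in beef. The part of the diet groups in this rho was not tested.

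**Figure D4:**
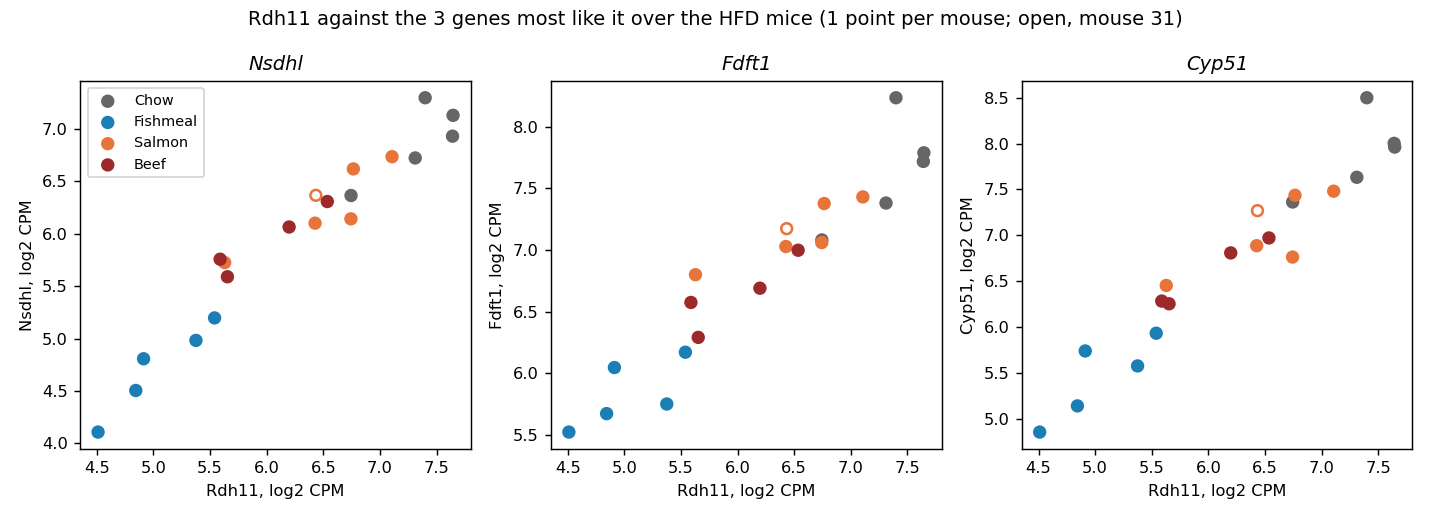
Log2 CPM of Nsdhl, Fdft1 and Cyp51 (vertical axes) against that of Rdh11 (horizontal axes) in each of the 20 mice, coloured by diet group, with mouse 31 as an open symbol. The 5 fishmeal mice lie at the low end of each panel, and 4 chow mice have the highest Rdh11.

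The genes most like Cyp26a1 were Eif3m (rho = 0.850), C1d (0.8286) and Dym (0.825), and those most like Rara were Furin (0.979), Tap2 (0.971) and Vps72 (0.968). Of these 6 genes, Dym passed in HFD against chow (0.23, adjusted p = 0.0464), and the other 5 had adjusted p from 0.117 to 0.910.

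Another 49 genes of retinoid handling were taken from lists by role, which were also drawn up with earlier results of these data known. Of the 49 genes, 41 were tested in HFD against chow. Of these, 2 rose and 5 fell, beside 9.75% of all genes that passed in either direction. At an unadjusted p under 0.05 there were 17 of the 41, beside 24.4% of all genes. The median log2 fold change over the 41 was -0.0478, beside 0.00499 over all genes. In fishmeal, salmon and beef against chow, 4 of 41, 2 of 40 and 3 of 41 passed, beside 3.38%, 4.46% and 2.48% of all genes. Between the HFD groups 0 of 40 passed in each pair in edgeR. The number with an unadjusted p under 0.05 was 3 for fishmeal and salmon, 1 for fishmeal and beef, and 3 for salmon and beef, beside 4.24%, 2.33% and 3.71% of all genes.

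**Figure D5:**
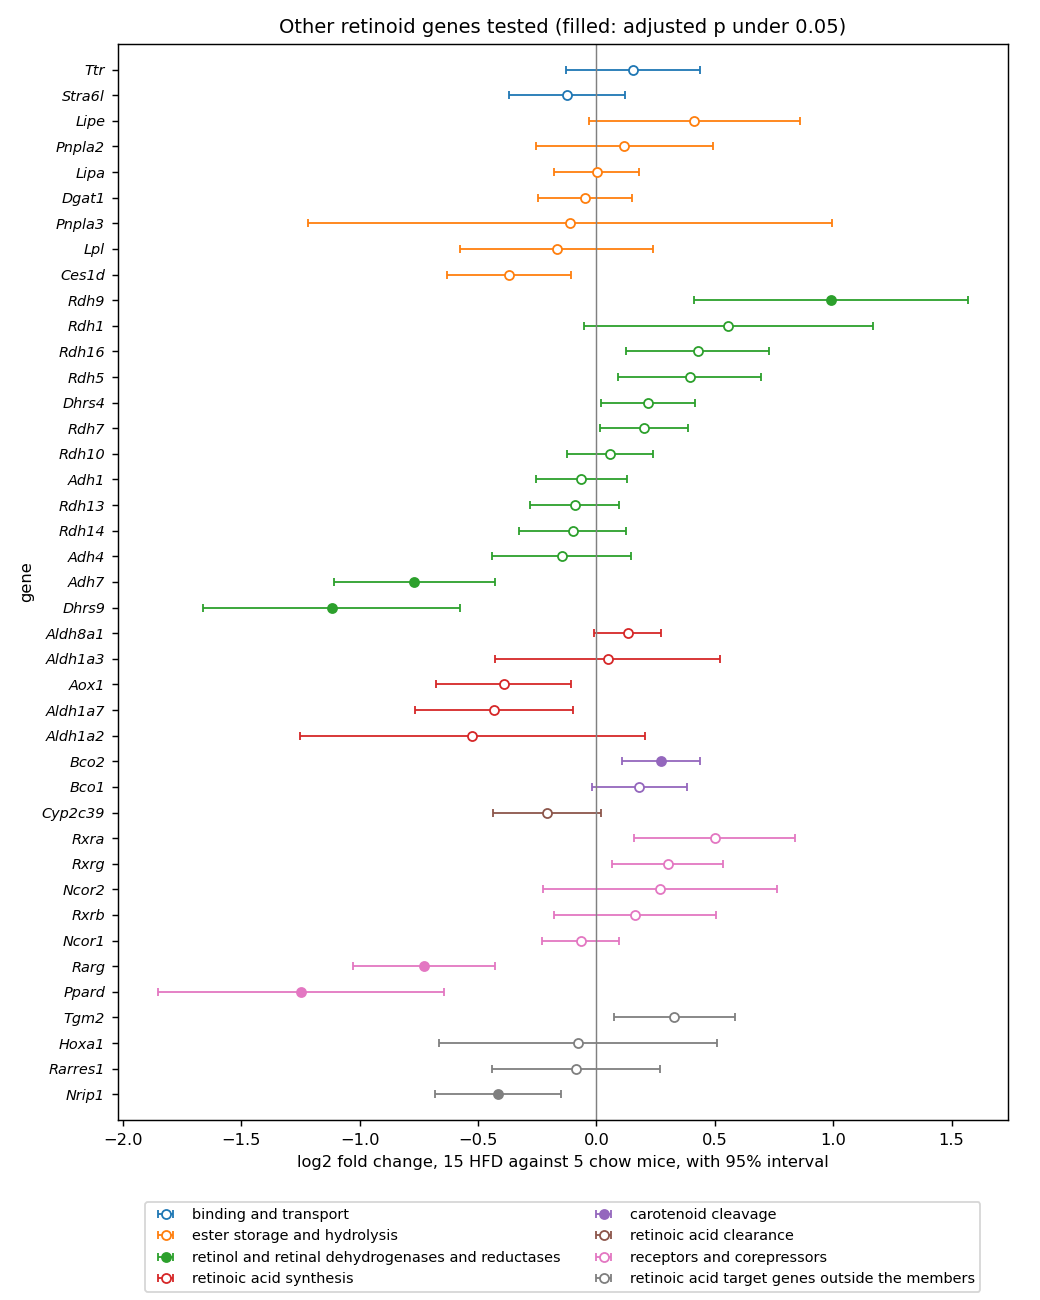
Log2 fold change of 41 other retinoid genes in 15 HFD against 5 chow mice (horizontal axis) with 95% intervals, coloured by role; filled symbols passed an adjusted p under 0.05. The filled symbols are Rdh9 and Bco2 above 0, and Adh7, Dhrs9, Rarg, Ppard and Nrip1 below 0.

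Among genes of binding and transport, 0 of 2 tested passed in edgeR, and 0 had an unadjusted p under 0.05. The abundant Ttr, whose protein carries the complex of retinol and its binding protein, stood at 0.15 (adjusted p = 0.532) on the log2 scale, and Stra6l, a liver receptor for that complex, had -0.12 (adjusted p = 0.563). The cellular retinoic acid binding protein genes Crabp1 and Crabp2 and the receptor gene Stra6 were at or near 0 and were not tested. Of the 7 genes of ester storage and hydrolysis 0 passed in edgeR and 1 had an unadjusted p under 0.05: Ces1d had -0.37 (SE 0.126, adjusted p = 0.0645) with all 15 HFD mice under the chow mean, and Lipa had 0.000141 (adjusted p = 0.999).

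Of 13 tested retinol and retinal dehydrogenases and reductases 1 rose and 2 fell. Rdh9 stood at 16.6 to 34.1 CPM in chow and 26.2 to 104 CPM in HFD, and rose by 0.99 (SE 0.279, adjusted p = 0.0268). Dhrs9 stood at 5.92 to 10.9 CPM in chow and 1.38 to 7.49 CPM in HFD, and fell by 1.119 (SE 0.262, adjusted p = 0.00816). Adh7, at 2.24 to 2.77 CPM in chow, did not overlap with HFD (0.723 to 2.10 CPM) and fell by 0.77 (SE 0.164, adjusted p = 0.00423). Of all genes tested, 0.888% lay wholly lower in HFD. The most abundant genes of this list, Adh1 and Rdh7, had -0.06 (adjusted p = 0.730) and 0.20 (adjusted p = 0.169).

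Of the 5 other genes of retinoic acid synthesis 0 passed in edgeR and 2 had an unadjusted p under 0.05. The median log2 fold change of the 5 was -0.39, beside 0.00499 over all genes tested, with Aldh8a1 at 0.13 (adjusted p = 0.242). Of the carotenoid cleavage genes, which make retinal or its relatives from dietary carotenoids, Bco2 stood at 29.0 to 34.5 CPM in chow and 30.5 to 48.1 CPM in HFD, and rose by 0.27 (SE 0.0798, adjusted p = 0.0305), while Bco1 had 0.18 (adjusted p = 0.260). Cyp2c39, a further retinoic acid hydroxylase gene, had -0.21 (SE 0.111, adjusted p = 0.255).

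Among 7 genes of receptors and corepressors 2 fell. Rarg, the third retinoic acid receptor gene, stood at 7.60 to 12.3 CPM in chow and 3.91 to 9.05 CPM in HFD, and fell by 0.73 (SE 0.145, adjusted p = 0.00243), opposite in sign to Rara. Ppard, a nuclear receptor gene, stood at 14.6 to 41.3 CPM in chow and 6.11 to 25.3 CPM in HFD, and fell by 1.248 (SE 0.291, adjusted p = 0.00811). Rxra, the main partner receptor of liver, had 0.50 (SE 0.164) and did not pass (adjusted p = 0.0551), and Ncor1, a corepressor, had -0.07 (adjusted p = 0.647). Of 5 tested genes listed as targets of retinoic acid outside the members, 2 fell: Rarg, given above, and Nrip1, a coregulator of nuclear receptors, by 0.42 (SE 0.129, adjusted p = 0.0428). Tgm2, the most abundant of them, had 0.33 (adjusted p = 0.0926) and Rarres1 -0.09 (adjusted p = 0.813). With the clock score as a covariate Rarg (-0.94, adjusted p = 0.0101) still passed, and the other 6 called genes did not. Of all 17120 genes tested, 314 passed with the score, beside 1669 without it. Bco2 had 0.35 (adjusted p = 0.0908) and Adh7 -0.74 (adjusted p = 0.109) in that fit, while Rdh9 had 0.56, Dhrs9 -0.28, Ppard -0.37 and Nrip1 -0.0358 (adjusted p from 0.515 to 0.957). Nrip1 also did not pass with no filter, in limma or in the fit on all 4 groups (adjusted p from 0.0558 to 0.0606), Bco2 with no filter or in limma (adjusted p = 0.0547 and 0.178), and Rdh9 in limma (adjusted p = 0.0561). The calls of Rdh9, Bco2, Ppard and Nrip1 were lost in 3, 3, 1 and 12 of 20 repeats with 1 mouse dropped.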

How the data were processed

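Liver RNA was sequenced from 20 mice, 1 library per mouse. The authors trimmed reads, mapped them with HISAT2 1.2.1 and made raw read counts per Ensembl gene with featureCounts 1.4.6-p1, and the deposited TPM values were scaled by the authors to gene length and library. The settings for strand and for reads with several matches are not given in the sources used here. Groups came from the sample labels, and members were matched by symbol. The members and lists were chosen with earlier results of these data known. A gene of the pathway lists is not reported here, and the counts over those lists leave it out.

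Counts were tested in edgeR 4.0.16 (R 4.3.3; quasi-likelihood F-test, two-sided, TMM, filterByExpr with a minimum count of 10), with Benjamini-Hochberg adjustment over all genes tested and a threshold of 0.05. Pairwise fits held only the groups compared. CPM were TMM-scaled over all libraries, with a prior count of 2 on the log2 scale. The genes named were the members, the pathway genes called in HFD against chow with the 2 most abundant uncalled genes of each list, and the 3 genes most like each called member. Genes whose values are given for another reason (Top2b, Aldh1a7, Cyp26c1 and genes at 0) were chosen after their values were seen. Alternatives were DESeq2 size factors, upper quartile normalisation, other count filters, DESeq2 1.42.0, limma 3.58.1 on log2(TPM + 1) for genes that averaged 0.5 TPM or more, a fit on all 4 groups, the clock score as a covariate, mouse 31 by its column ending, each mouse left out, and, added later, offsets for GC and length. Similar transcripts were searched with blastn 2.17.0+ (at least 85% identity over 100 bases). Gene positions are on GRCm38 and promoters are from RefSeq GRCm38.p6.

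The test was tried on simulated data. With 200 genes changed 2-fold among 17120 in HFD against chow, 72% of them were called and 7.10% of calls were false. In fishmeal against salmon (16548 genes) 66.5% were called and 5.67% of calls were false. In the data 1669 genes were called in HFD against chow, more than the 200 changed here, so these shares may not carry over.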

Additional observations from a re-analysis of the deposited data

Results flagged for a closer look

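Single mice stood apart for 3 members, by the gap to the nearest mouse relative to the range of the group, both in log2 CPM. Salmon mouse 22 had 0.841 CPM of Cyp26b1, the lowest of its group of 6 (gap of 0.665 of the range). This flag rests on mouse 31 being counted as salmon. Without mouse 31 the gap would be the same, but it would fall short of the value needed in a group of 5. Chow mouse 5 had 39.5 CPM of Lrat, the highest of its group of 5 (0.822 of the range), and chow mouse 1 had 7.13 CPM of Rara, the lowest of the same group (0.843 of the range). Over 36 groups of a member and a diet, chance gives such a mouse in about 1 group in 20.

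Rdh11 differed between the fishmeal and salmon groups: its log2 fold change in fishmeal against salmon was -1.49 in edgeR, which is the test of the difference between these groups. Their diets differ in cholesterol and soybean oil as well as in protein source. The cause was not tested.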

How the results depend on the processing

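Members called moved as follows. With the clock score as a covariate 1 was called in HFD against chow. In fishmeal against chow 2 were called with no filter, 3 in DESeq2, 2 in the fit on all 4 groups and 3 with offsets for GC and length. In salmon against chow 2 were called with no filter, 3 in DESeq2 and 3 with the offsets. Beside Rdh11 and Cyp26a1, the members gained were Aldh1a1 in fishmeal (DESeq2 and the offsets) and Rara in fishmeal (the offsets) and salmon (DESeq2 and the offsets). With each mouse left out, the number called was 2 to 4 in HFD, 1 to 2 in fishmeal, 1 to 2 in salmon and 0 to 2 in beef against chow, and 0 to 1 in fishmeal against salmon. The causes were not tested. Over all genes in HFD against chow, 314 passed with the clock score and 2541 with the offsets, beside 1669, and 986, 1070 and 1049 without chow mouse 1, 2 or 7. In fishmeal against chow 1200 passed in DESeq2, 837 in the fit on 4 groups and 1029 with the offsets, and 367 in limma, beside 556. In salmon against chow 1488 passed in DESeq2, 1259 with the offsets and 437 in limma, beside 740. In beef against chow 1092 passed in DESeq2, 780 in the fit on 4 groups and 994 with the offsets, beside 411. In fishmeal against salmon 84 passed in DESeq2 and 42 with no filter, beside 26, and in fishmeal against beef 30 in DESeq2, 10 with no filter and 4 in the fit on 4 groups or by the column ending, beside 1. Salmon against beef had 1 in DESeq2, beside 0. With each mouse left out, 288 to 685 genes passed in fishmeal, 311 to 728 in salmon and 100 to 634 in beef against chow, 18 to 41 in fishmeal against salmon and 0 to 4 in fishmeal against beef. Totals moved by over 1.5 times without chow mouse 2 or 7 or fishmeal mouse 14 or 20 in fishmeal against chow, without chow mouse 1, 2 or 7 or salmon replicate 1, 3, 4 or 5 in salmon against chow, without chow mouse 2 or 7 or beef mouse 32, 39 or 40 in beef against chow, and without fishmeal mouse 12 in fishmeal against salmon.

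Values near 0 that did not pass turned sign. Dhrs3 in HFD against chow was -0.000528 with at least 10 counts everywhere, -0.0519 in limma and -0.0178 with the offsets, and Rbp4 was -0.137 with the clock score. In fishmeal against chow limma gave Cyp26b1 0.00786 and Dhrs3 -0.0252. In salmon against chow, by the column ending of mouse 31, Cyp26b1 was -0.111 and Rbp4 0.0190, and Dhrs3 was -0.0128 with the offsets. Lrat in beef against chow was -0.0315 in limma. In fishmeal against salmon limma gave Rarb -0.0218 and Dhrs3 -0.0438, the column ending gave Rarb -0.00440, and the offsets gave Lrat -0.0179 and Rara 0.0809. Rara in fishmeal against beef was 0.0454 in limma, 0.00504 by the column ending and 0.0644 with the offsets, and in salmon against beef 0.0930 in limma and 0.0889 by the column ending.

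With each mouse left out, HFD against chow ranged from -0.110 to 0.977 for Cyp26b1 and -0.0466 to 0.0393 for Dhrs3. Fishmeal against chow ranged from -0.543 to 0.6246 for Cyp26b1, -0.0126 to 0.199 for Rbp4 and -0.0189 to 0.116 for Dhrs3. Salmon against chow ranged from -0.198 to 0.919 for Cyp26b1, -0.0993 to 0.0190 for Rbp4 and -0.0257 to 0.0596 for Dhrs3. Lrat in beef against chow ranged from -0.122 to 0.224. Fishmeal against salmon ranged from -0.629 to 0.00446 for Cyp26b1, -0.0955 to 0.131 for Lrat, -0.0891 to 0.0648 for Rara, -0.101 to 0.111 for Rarb and -0.0560 to 0.0870 for Dhrs3. Fishmeal against beef ranged from -0.0639 to 0.239 for Lrat and -0.299 to 0.117 for Rara. Salmon against beef ranged from -0.0801 to 0.212 for Lrat, -0.209 to 0.0393 for Aldh1a1 and -0.282 to 0.124 for Rara. No paired analysis was possible because the labels number each mouse once. With 4 to 6 mice per group, the wide intervals of Cyp26b1 limit what could be detected.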
